A study of Mus musculus with 66 samples.

Results

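The transcripts described here encode the solute carriers (Slc proteins) that move inorganic ions and metals across membranes: bicarbonate and other anion exchangers, sodium-proton exchangers, cation-chloride cotransporters, phosphate and dicarboxylate cotransporters, and the iron, zinc and magnesium carriers. They were chosen by gene symbol from 14 Slc families, which gave 48 transcripts of 41 gene symbols among the 9481 transcripts of 8978 symbols in the expression table. Of these, 45 transcripts of 39 genes encode carriers. The other 3 transcripts were matched only by their symbol: Slc9a3r1 encodes a scaffold protein that binds the sodium-proton exchanger Slc9a3, and both Slc4a1ap transcripts encode an adaptor protein. The Slc8 and Slc24 families were not analysed here.

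The study grew small intestinal organoids from mice carrying the Lgr5 GFPDTR/+ allele in 3 media. ENR medium held epidermal growth factor, Noggin and R-Spondin-1 and gave organoids of mixed cell types. CV organoids, enriched for stem cells, grew in ENR with the GSK3 inhibitor CHIR99021 at 3 µM and valproic acid at 1 mM, and EN organoids, enriched for enterocytes, grew in ENR without R-Spondin-1. RNA was sequenced in 4 libraries per culture and chromatin accessibility (ATAC-seq) in 4. The histone marks H3K27ac, H3K4me3 and H3K27me3 had 4 libraries per culture, or 5 for H3K27ac in CV, of which the 3 with scores in the region table were used. The transcription factor Hnf4g had 1 library per culture. Nothing in the sources used here says whether libraries of a culture came from separate organoid cultures, so p-values measure only the spread between these libraries. Time in culture also differed between CV and EN and cannot be told apart from the medium.

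As background, the intestinal epithelium divides these carriers between its surfaces. Apical exchangers such as Slc9a3 and Slc26a3 take up sodium and chloride from the lumen, while crypt cells use the basolateral cotransporter Slc12a2 to load chloride for secretion. Zinc enters the cytosol through the Slc39 family and leaves it through the Slc30 family, and iron enters enterocytes through Slc11a2 and leaves them through Slc40a1.

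The RNA libraries held 5630977 to 8859757 counts on transcripts. CPM are counts scaled to the library's total after it was multiplied by the library's TMM normalization factor from edgeR. These factors were 1.11 to 1.13 in CV, 1.07 to 1.08 in ENR and 0.829 to 0.842 in EN. On this scale 3 counts, taken as the limit of detection, corresponded to 0.361 to 0.642 CPM. Enterocyte and stem cell markers followed the labels between EN and CV. Between CV and ENR the stem cell markers did not, with 4 transcripts higher in CV and 5 lower. All 12 transcripts of the enterocyte list were higher in EN than in CV, with summed levels of 9124 to 9594 CPM in CV, 9992 to 11298 in ENR and 63579 to 66103 CPM in EN. All 11 stem cell transcripts were lower in EN, with sums of 2012 to 2089, 3440 to 3572 and 152 to 168 CPM, and Tnfrsf19 was at 0 counts in EN. Other lineages moved with the culture as well. All 6 enteroendocrine transcripts (25.7 to 38.8 CPM in CV, 1485 to 1956 in EN), all 6 tuft cell transcripts (2.43 to 4.82 and 104 to 141 CPM) and 8 of 9 goblet cell transcripts (909 to 1010 and 10304 to 11558 CPM, with Clca1 at 0 in CV) were higher in EN. Of 12 Paneth cell transcripts, 5 were higher and 7 lower in EN (3842 to 4336 and 2252 to 2535 CPM), and Mptx1 was at 0 in CV. The ENR sums were 540 to 561 (enteroendocrine), 44.2 to 46.6 (tuft), 2197 to 2378 (goblet) and 7458 to 7908 CPM (Paneth). Against ENR, all 6 enteroendocrine, all 6 tuft and 7 of 9 goblet transcripts were higher in EN, and 1 goblet transcript was lower. Of the 12 Paneth transcripts, 2 were higher in EN than in ENR and 10 lower. The part of these lists in the carrier results was not tested. Slc12a2 belongs to the stem cell list and Slc30a2 to the Paneth list, and in these bulk samples fewer cells of a type and less RNA per cell cannot be told apart. Slc12a2 alone supplied 922 to 981 CPM of the stem cell sum in CV, 1409 to 1456 in ENR and 42.1 to 45.6 in EN.

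Most carrier transcripts differed between EN and CV, and the majority were higher in EN. Of the 45 carrier transcripts, 43 had counts in enough libraries to be tested. The erythrocyte anion exchanger Slc4a1 reached at most 0.178 CPM and 1 of the Slc12a7 transcripts had no counts. At an adjusted p under 0.01, 25 of the 43 were higher in EN and 10 lower, 35 in all (81.4%), against 76.4% of all 9288 tested transcripts. The share called was therefore close to that of the whole table. Among all transcripts 35.2% were higher and 41.2% lower. With a change of at least 2-fold also required, 11 were higher and 6 lower, 17 in all, against 35.4% of all transcripts. The median log2 fold change was 0.57 for the carriers and -0.08 for all transcripts. The 4 EN libraries did not overlap the 4 CV libraries for 35 of the 43, against 76.5% of all transcripts.

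The excess of higher over lower carriers depended on how libraries were scaled. Among called carriers, 71.4% were higher in EN by counts, 55.6% by TPM, the authors' length-corrected transcript share (20 higher, 16 lower), 52.2% with the libraries scaled to the spike-in transcripts (12 higher, 11 lower) and 88.9% by the deposited mRNA copies (32 higher, 4 lower). The same scalings moved the median of all transcripts to -0.34 with TPM, -0.49 with spike-ins and 0.62 with mRNA copies. Relative to that median, the carrier median lay 0.65 higher by counts, 0.57 by TPM, 0.66 by spike-ins and 0.51 by mRNA copies. Slc4a4, Slc9a2 and Slc30a9, called higher in EN by counts, had negative log2 fold changes under TPM and spike-in scaling, and Slc4a2, Slc39a14 and Slc39a4, called lower by counts, had positive ones under mRNA copies.

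**Figure D1:**
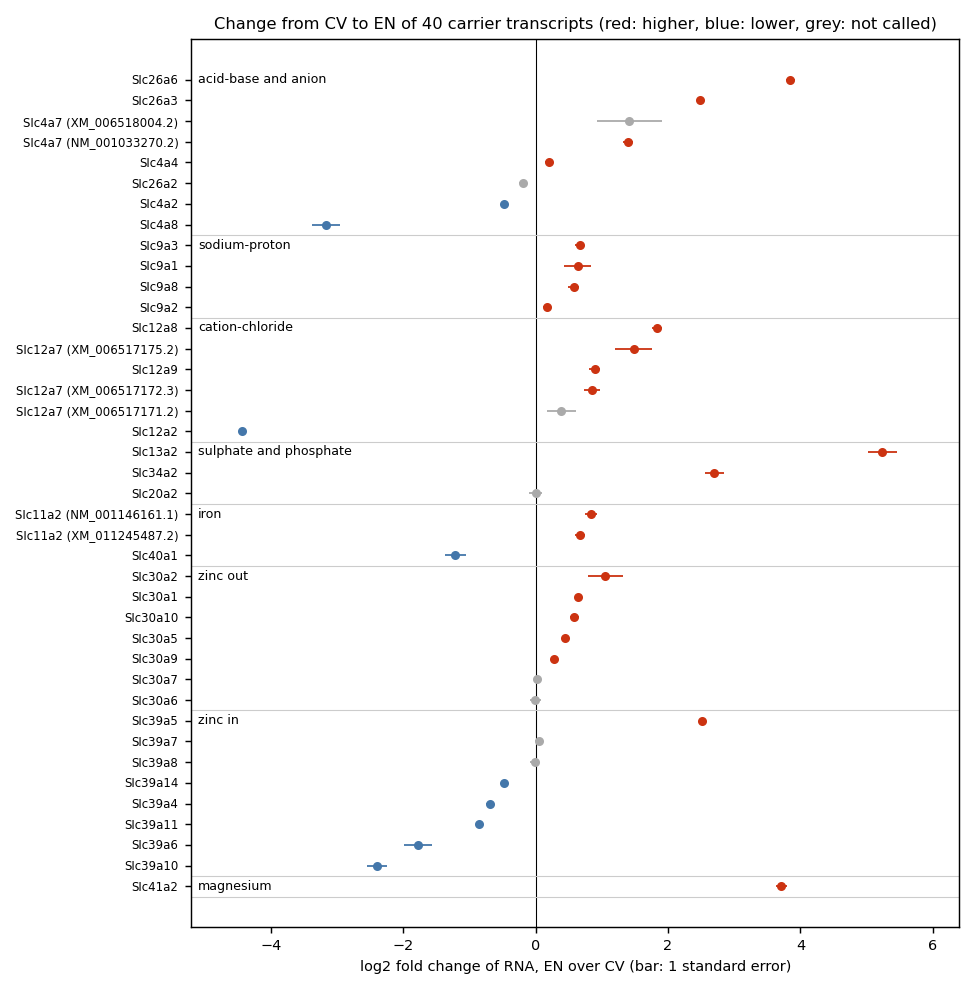
Log2 fold change of RNA from CV to EN for 40 of the 43 tested carrier transcripts, grouped by role, with bars of 1 standard error; red points were higher in EN, blue lower and grey not called at an adjusted p of 0.01. Slc13a2 lies farthest to the right at 5.23 and Slc12a2 farthest to the left at -4.43.

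The anion and acid-base carriers held some of the largest changes of all. Of 8 tested transcripts, 4 were higher in EN than in CV, 2 were lower and 2 were not called. Slc26a6 (NM_134420.4; chr9:108756368-108764472 in mm9), an apical exchanger of chloride for bicarbonate and oxalate, read 36.8, 36.0, 38.7 and 44.0 CPM in the 4 CV libraries, 111, 96.9, 109 and 107 in ENR and 568, 518, 594 and 562 CPM in EN. The 3 cultures did not overlap and ENR lay between the others. The change from CV to EN was 14.4-fold, a log2 fold change of 3.85 (SE 0.07, adjusted p = 1.2e-16).

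Slc26a3 (NM_021353.3; chr12:32075736-32158782), the chloride-bicarbonate exchanger that absorbs chloride in the gut, read 90.8, 84.1, 88.5 and 87.4 CPM in CV, 144, 133, 151 and 137 in ENR and 458, 498, 519 and 495 CPM in EN. It too rose without overlap from CV through ENR to EN, with a log2 fold change of 2.49 between the ends (SE 0.05, adjusted p = 7.8e-16). Slc4a7, an electroneutral sodium-bicarbonate cotransporter, was counted as a pair of transcripts. The more abundant (NM_001033270.2) averaged 256, 244 and 674 CPM in CV, ENR and EN, a log2 fold change of 1.40 (SE 0.08, adjusted p = 1.4e-10), while the other (XM_006518004.2) ranged from 0 to 52.9 CPM within ENR alone and was not called (1.42, SE 0.49, adjusted p = 0.015). Counts were divided among transcripts of a gene by the authors' estimation, so the gene's sum is given too: 290, 267 and 763 CPM, a log2 fold change of 1.40 (SE 0.05).

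Slc4a8 (XM_006521225.3; chr15:100592178-100654399), a sodium-driven chloride-bicarbonate exchanger, was far higher in CV than elsewhere. Its libraries read 15.6, 19.6, 13.3 and 21.2 CPM in CV, 1.54, 1.80, 1.37 and 1.13 in ENR and 2.55, 1.93, 1.61 and 1.58 CPM in EN. CV stood clear of both other cultures, with a log2 fold change of -3.16 from CV to EN (SE 0.21, adjusted p = 1.1e-09) and of 3.58 from ENR to CV, and the difference between EN and ENR (0.42, SE 0.28, adjusted p = 0.18) was not called. Slc4a2, the anion exchanger AE2, averaged 136, 84.2 and 97.9 CPM in CV, ENR and EN. The bicarbonate cotransporter Slc4a4 averaged 113, 93.5 and 131 CPM. The sulphate carrier Slc26a2, at 63.3, 44.9 and 55.4 CPM, was not called between EN and CV (-0.19, adjusted p = 0.014).

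**Figure D2:**
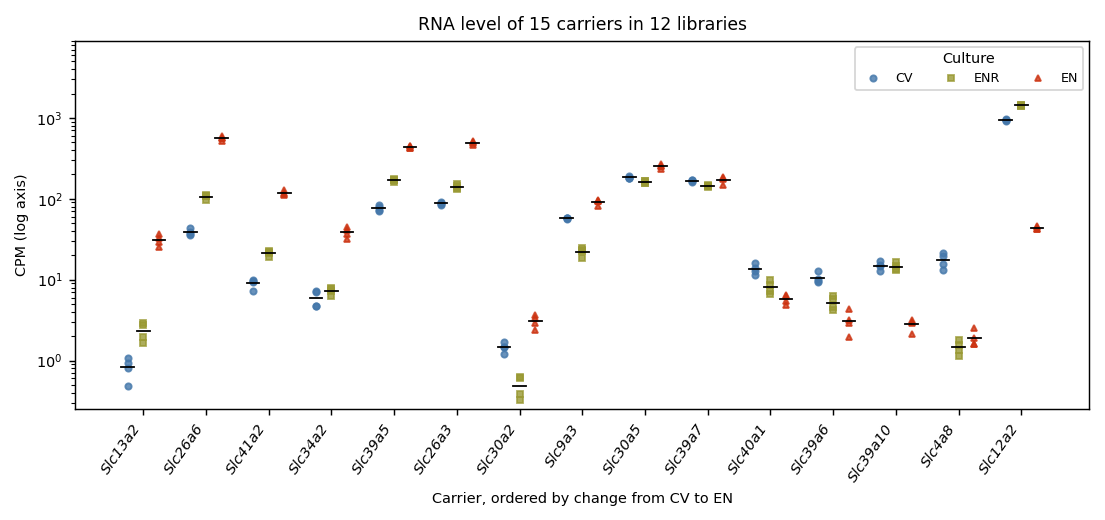
CPM of 15 carriers on a log axis in the 12 RNA libraries, ordered by change from CV to EN; points are libraries (circles CV, squares ENR, triangles EN) and bars culture means. EN lies highest at the left end, from 25.1 to 37.1 CPM for Slc13a2, and lowest at the right end, from 42.1 to 45.6 CPM for Slc12a2.

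Sodium-proton exchangers trade sodium for protons at the cell surface and in organelles. Between EN and CV, 4 of the 5 were higher and 1 was lower, though the rise of Slc9a2 (0.17) turned negative under TPM and spike-in scaling and its libraries overlapped. Slc9a3 (XM_006517022.3; chr13:74258963-74303512), the main apical sodium absorber, read 57.7, 55.7, 58.2 and 58.4 CPM in CV, 23.2, 18.3, 22.6 and 24.7 in ENR and 95.8, 81.8, 93.7 and 93.0 CPM in EN. ENR was the lowest culture, and no libraries overlapped. The log2 fold change was 0.67 from CV to EN (SE 0.07, adjusted p = 2e-07), 2.03 from ENR to EN and 1.36 from ENR to CV. With spike-in scaling the change from CV to EN was 0.26 and was no longer called.

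Slc9a2, another apical exchanger, followed the same order of cultures at 124, 66.4 and 139 CPM in CV, ENR and EN. The scaffold Slc9a3r1, no carrier itself, averaged 124, 93.1 and 435 CPM, a log2 fold change of 1.81 from CV to EN.

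The cation-chloride cotransporters split between 1 large fall and several rises. Of 8 tested transcripts, 6 were higher in EN than in CV and 1 was lower. Slc12a2 (NM_009194.3), the basolateral sodium-potassium-chloride cotransporter, read 922, 943, 947 and 981 CPM in CV, 1437, 1456, 1409 and 1418 in ENR and 45.6, 42.2, 42.1 and 45.1 CPM in EN. EN lay far below both other cultures and ENR above CV. The fall from CV to EN was 21.6-fold (log2 fold change -4.43, SE 0.04, adjusted p = 1.6e-18), and that from ENR to EN reached a log2 fold change of -5.03. Per length, Slc12a2 had the highest mean TPM of the carriers in CV (235) and ENR (318) and ranked 30 of 39 in EN (8.71).

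Slc12a8, a distant relative of these cotransporters, averaged 41.1, 112 and 146 CPM across CV, ENR and EN, and EN exceeded CV by 1.83 on the log2 scale. The potassium-chloride cotransporter Slc12a7, summed over its transcripts, averaged 60.4, 52.9 and 104 CPM (log2 fold change 0.79, SE 0.06). The individual Slc12a7 transcripts gave 0.39, 0.85 and 1.48, of which the first was not called. Slc12a9 rose by a log2 fold change of 0.89.

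Among the phosphate and dicarboxylate carriers, Slc13a2 and Slc34a2 rose in EN and Slc20a2 did not pass the test. Slc13a2 (NM_022411.3; chr11:78210589-78235719), the apical sodium cotransporter for citrate and other dicarboxylates, read 1.08, 0.801, 0.928 and 0.482 CPM in CV, 1.66, 1.96, 2.89 and 2.77 in ENR and 33.1, 25.1, 37.1 and 29.5 CPM in EN. The CV values rest on 8, 6, 7 and 4 counts. The fold change of 37.6 (log2 fold change 5.23, SE 0.22, adjusted p = 4.2e-12) was the largest of the 43 carriers, and the rise from ENR to EN was 3.74 on the log2 scale.

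Slc34a2 (NM_011402.3; chr5:53429321-53462903), the apical sodium-phosphate cotransporter, read 7.14, 4.67, 4.77 and 7.11 CPM in CV, 7.68, 6.22, 7.90 and 7.17 in ENR and 37.0, 32.1, 44.4 and 40.9 CPM in EN. CV and ENR overlapped (-0.29, SE 0.17, adjusted p = 0.14), and EN lay above both (2.70 over CV, SE 0.15, adjusted p = 1.1e-10). Slc20a2, the housekeeping phosphate cotransporter PiT2, averaged 17.0 CPM in CV, 23.8 in ENR and 17.0 in EN, and was higher in ENR than in either other culture.

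The iron carriers changed in opposite directions. Slc11a2, the apical importer of ferrous iron, averaged 90.1, 112 and 155 CPM over its transcripts, a log2 fold change of 0.78 from CV to EN (SE 0.06), and both of its transcripts were called higher. Slc40a1 (XM_006496137.2; chr1:45964915-45982439), the exporter ferroportin, read 12.7, 16.02, 13.8 and 11.4 CPM in CV, 9.86, 8.51, 6.68 and 7.17 in ENR and 6.30, 4.92, 6.42 and 5.47 CPM in EN. It fell from CV to EN without overlap (-1.21, SE 0.16, adjusted p = 3.5e-06), while the difference between EN and ENR (-0.47, adjusted p = 0.016) was not called. By mRNA copies the log2 difference between EN and CV was -0.42 and was not called.

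Zinc exporters of the Slc30 family were mostly higher in EN and lowest in ENR. Against CV, 5 of 7 were higher in EN and none was lower, although Slc30a9 (0.28) turned negative under TPM and spike-in scaling. Against ENR, 7 of 7 were higher in EN, of which Slc30a6, Slc30a7 and Slc30a9 had negative values with spike-in scaling. Slc30a5 (NM_022885.2; chr13:101572604-101603382), which loads zinc into the secretory pathway, read 183, 183, 194 and 182 CPM in CV, 164, 166, 159 and 158 in ENR and 237, 253, 268 and 256 CPM in EN. The cultures did not overlap, with a log2 fold change of 0.45 from CV to EN (SE 0.04, adjusted p = 5.4e-08). It was 0.02 with spike-in scaling and no longer called. Slc30a1, the exporter of the plasma membrane, averaged 67.3, 54.5 and 105 CPM (0.64, SE 0.05, adjusted p = 4.7e-09). Slc30a10, which is known for exporting manganese, averaged 80.8, 50.7 and 121 CPM (0.59, SE 0.07, adjusted p = 7.8e-07).

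Slc30a2 (NM_001039677.2; chr4:133899096-133910399), which fills vesicles with zinc and marks Paneth cells, was near the limit of detection. It read 1.48, 1.47, 1.19 and 1.69 CPM in CV, 0.384, 0.327, 0.607 and 0.629 in ENR and 2.41, 3.64, 3.39 and 2.88 CPM in EN. ENR was lowest, on 2 to 5 counts per library, and EN highest, with a log2 fold change of 1.05 from CV to EN (SE 0.26, adjusted p = 0.0016) and 2.59 from ENR to EN. The first was 0.61 with spike-in scaling and not called.

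Among the zinc importers of the Slc39 family, falls outnumbered rises from CV to EN but not from ENR to EN. Against ENR, 3 of 8 were higher in EN and 2 lower, with a median log2 fold change of -0.02. Of 8 tested, 5 were lower in EN than in CV, 1 was higher and 2 were not called, with a median log2 fold change of -0.58, although Slc39a14 and Slc39a4 had positive values by mRNA copies. The rise was that of Slc39a5 (XM_006514173.3; chr10:127832990-127838280), the basolateral importer of enterocytes. It read 72.1, 71.0, 83.0 and 80.0 CPM in CV, 175, 161, 172 and 169 in ENR and 451, 425, 455 and 419 CPM in EN. ENR lay between the others with no overlap, and EN exceeded CV by 2.52 on the log2 scale (SE 0.05, adjusted p = 1.1e-15).

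Slc39a10 (XM_006495932.3; chr1:46864389-46910891), an importer of the plasma membrane, read 15.4, 14.9, 16.8 and 12.7 CPM in CV, 13.2, 14.6, 16.6 and 13.6 in ENR and 3.22, 3.00, 2.14 and 2.88 CPM in EN. CV and ENR overlapped and EN was lower than both (-2.39 from CV, SE 0.15, adjusted p = 6.6e-10). Its close relative Slc39a6 (NM_139143.3) read 10.2, 12.7, 9.28 and 9.76 CPM in CV, 4.22, 6.22, 4.56 and 5.79 in ENR and 3.22, 4.28, 1.96 and 2.88 CPM in EN. It was lower in EN than in CV (-1.77, SE 0.21, adjusted p = 1.2e-06), while its lowest ENR library lay below its highest EN library.

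Slc39a4, the apical zinc importer, averaged 54.8 CPM in CV, 39.2 in ENR and 34.04 in EN. Slc39a14, which also carries iron and manganese, averaged 386, 156 and 276 CPM, and Slc39a11 averaged 174, 94.5 and 96.5 CPM. Both were higher in CV than in either other culture. Slc39a7 (NM_008202.2; chr17:34165212-34168635), which releases zinc from the endoplasmic reticulum and Golgi, read 170.5, 165, 169.7 and 159.6 CPM in CV, 147, 143, 145 and 142 in ENR and 180, 186, 148.8 and 175 CPM in EN. EN and CV overlapped and the change (0.05, adjusted p = 0.38) was not called; its sign was negative under TPM and spike-in scaling. Slc39a8 averaged 54.7, 56.9 and 54.3 CPM and was called in none of the 3 comparisons.

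Slc41a2 (XM_011243498.2; chr10:82693593-82800627), a magnesium carrier, read 9.70, 10.0, 7.29 and 9.28 CPM in CV, 19.3, 21.3, 21.7 and 22.7 in ENR and 113, 116, 128 and 119 CPM in EN. The cultures did not overlap, and the 13.1-fold rise from CV to EN (log2 fold change 3.71, SE 0.08, adjusted p = 2.3e-15) ranked just below that of Slc26a6.

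Levels of different carriers were compared per length, as TPM. Summed over all carriers, the mean was 1495 TPM in CV, 1397 in ENR and 1873 in EN. Anion and acid-base carriers summed to 238 ± 3.58 TPM in CV (SD, n = 4), 236 ± 6.93 in ENR and 658 ± 24.1 in EN. Cation-chloride cotransporters summed to 312 ± 11.1, 435 ± 5.38 and 166 ± 7.41 TPM. In both roles EN did not overlap the other cultures. Zinc importers held 541 ± 10.4, 411 ± 4.07 and 576 ± 15.2 TPM, so that their sum was higher in EN than in CV with no overlap, with Slc39a14 the leading member in CV (133 TPM) and Slc39a5 in EN (274 TPM). Zinc exporters held 243 ± 3.75, 191 ± 2.88 and 254 ± 7.83 TPM, and the lowest EN library overlapped the CV range. The 3 highest carriers in EN were Slc39a5, Slc26a3 (228 TPM) and Slc26a6 (225 TPM), which in CV ranked 9, 12 and 22. In EN every Slc39a5 value lay above those of the other two, whose libraries overlapped.

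**Figure D3:**
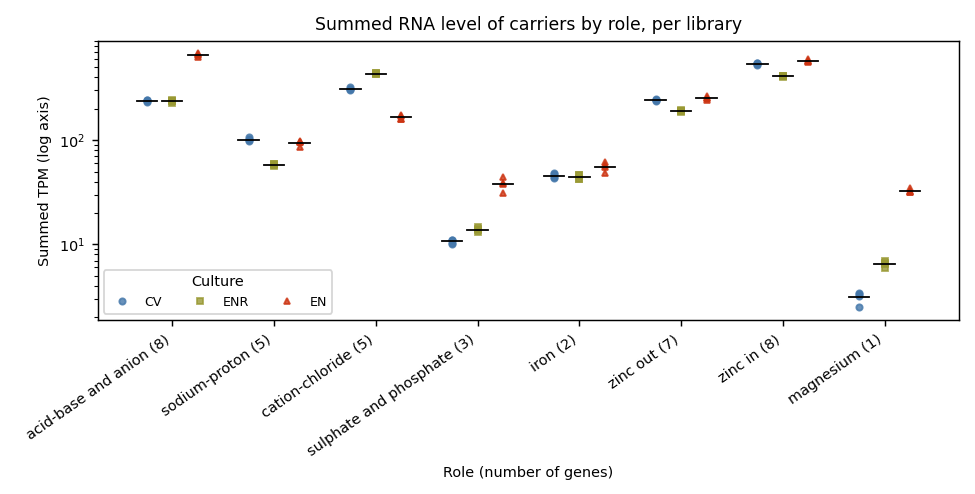
Summed TPM of the carriers in each role on a log axis in the 12 RNA libraries; points are libraries and bars culture means, and the number of genes is given with each role. The acid-base and anion sum lies at 626 to 681 TPM in EN against 227 to 242 TPM in ENR.

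ENR organoids, the maintenance culture, did not always lie between the others. Against ENR, 28 of 43 carriers were higher in EN and 5 lower, 33 in all, against 72.7% of all transcripts (35.5% higher, 37.2% lower), with a median log2 fold change of 0.49. With 2-fold also required 16 were higher and 2 lower, against 30.1% called of all transcripts. The libraries of 35 did not overlap, against 74.2%. The split was 22 to 9 by TPM, 15 to 9 with spike-in scaling and 37 to 2 by mRNA copies. Between CV and ENR, 21 were higher in CV and 12 lower, 33 in all, or 76.7% of the 43 against 60.0% of all transcripts (30.2% higher, 29.8% lower), with a median of 0.23. With 2-fold also required 5 were higher and 5 lower, against 12.9%, and the libraries of 32 did not overlap, against 65.7%. With spike-in scaling 10 were higher and 11 lower, and by mRNA copies 12 were higher and 3 lower. These comparisons share libraries with each other and with that of EN and CV.

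By libraries that did not overlap, ENR was below both other cultures for 15 of the 43 carriers (34.9%, against 14.1% of all transcripts) and above both for 3 (6.98%, against 15.1%). The 15 included 6 of the 7 zinc exporters and the exchangers Slc9a2 and Slc9a3, and the 3 were Slc12a2, Slc20a2 and Slc9a8. EN was above both for 20 (46.5%, against 27.5%) and below both for 5 (11.6%, against 30.9%). A stepwise rise from CV through ENR to EN was seen for 6 carriers, Slc12a8, Slc13a2, Slc26a3, Slc26a6, Slc39a5 and Slc41a2 (14.0%, against 11.6%), and a stepwise fall for 3, among them Slc39a4 and Slc40a1 (6.98%, against 11.1%).

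Genes that work beside the ion carriers, namely pumps, channels, carbonic anhydrases, scaffolds and regulators, were taken from a list of 49, of which 41 were in the table with 43 tested transcripts. Between EN and CV, 20 were higher and 11 lower, 72.1% called against 76.4% of all transcripts, with a median log2 fold change of 0.45. The largest rise was in Pdzk1, an apical scaffold for several of these carriers, at 0.943, 0.534, 0.530 and 0.602 CPM in CV and 94.5, 93.1, 81.0 and 95.3 CPM in EN (log2 fold change 7.09, SE 0.16). The guanylate cyclase ligands uroguanylin (Guca2b, 5.01) and guanylin (Guca2a, 3.24) came next. The largest fall was in Car12, a membrane carbonic anhydrase, at 89.9, 88.9, 90.4 and 94.0 CPM in CV and 1.21, 1.499, 1.78 and 0.432 CPM in EN (-6.25, SE 0.14). The calcium pump Atp2b4 (-4.13) and the proton pump Atp4a (-3.89) followed, with ENR at 0.491 to 1.06 CPM for Atp2b4 and 0.64 to 1.47 CPM for Atp4a, overlapping EN.

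Of 39 genes of metal handling, 28 were in the table with 30 tested transcripts, 13 of them higher and 8 lower in EN than in CV, 70.0% called against 76.4% of all, with a median of 0.17. The metallothioneins, which bind zinc and copper, rose: Mt2 averaged 69.9 CPM in CV, 64.1 in ENR and 246 in EN (1.82, SE 0.08). Mt1 averaged 124, 97.0 and 375 CPM (1.60, SE 0.07). Aco1, which doubles as an iron regulatory protein, changed by 1.60 as well. The metalloreductases Steap1 (-4.07) and Steap2 (-2.41) and the haem oxygenase Hmox1 (-2.93) had the largest falls.

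Chromatin was compared at 61 regions within 500 bp of an annotated start site of 38 of the carrier genes, called promoter regions here, and at 263 regions of 34 genes that lay in the gene or within 10 kb of it but farther from any start site. Values are the authors' normalized scores, compared between EN and CV by limma on log2(score + 1) at an adjusted p under 0.05. Library sums of the ATAC score were themselves higher in EN (1993594 to 2109261) than in CV (1752385 to 1840402), and so were those of H3K27ac (1622103 to 1760511 against 1345873 to 1406651). Counts after quantile normalization, which gives the libraries equal distributions, are therefore set beside the promoter counts.

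Accessibility at the carriers' promoters changed about as often as elsewhere. Of 61 promoter regions, 17 had higher and 9 lower ATAC scores in EN, 26 in all or 42.6%, against 34.5% of all regions near a start site (18.6% higher, 15.9% lower). Quantile-normalized scores gave 13 higher and 15 lower, and of all regions near a start site 34.4% were then called (10.4% higher, and 4332 of 18058 lower). The Slc41a2 promoter (chr10:82799599-82800702) scored 26, 35, 31 and 30 in CV, 41, 44, 42 and 30 in ENR and 88, 123, 97 and 106 in EN. EN lay above both cultures, with a log2 difference of 1.73 from CV (SE 0.15, adjusted p = 1.6e-07). The Slc4a8 promoter (chr15:100591838-100593210) scored 77, 78, 77 and 81 in CV, 33, 32, 31 and 33 in ENR and 34, 31, 23 and 22 in EN. CV stood apart there (-1.50, SE 0.15, adjusted p = 5.3e-07), as it did for the gene's RNA.

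Other promoters moved little or against the RNA. The Slc12a2 promoter scored 93 to 123 in CV and 97 to 106 in EN (-0.08, adjusted p = 0.6), although its RNA fell 21.6-fold. The Slc40a1 promoter scored 51, 37, 43 and 35 in CV and 70, 88, 87 and 72 in EN, a rise (0.92, SE 0.14, adjusted p = 4.8e-05) while the RNA fell. For comparisons by gene, RNA was called on counts summed per gene. That fit also called Slc26a2 lower in EN (-0.18, adjusted p = 0.0079), which the fit of transcripts did not. Of 22 genes with a promoter region and higher RNA in EN, 11 had a promoter region with a higher ATAC score and 3 a lower one. Of 11 genes with lower RNA, 2 had a higher and 3 a lower one. By region, 13 of 37 were higher and 4 lower for the genes with higher RNA. For those with lower RNA, 2 of 18 were higher and 3 lower. Across 38 genes the ATAC difference at the highest-scoring promoter region and the RNA change had a Pearson r of 0.50 and a Spearman rho of 0.27, given as a description, since the genes share the same libraries.

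**Figure D4:**
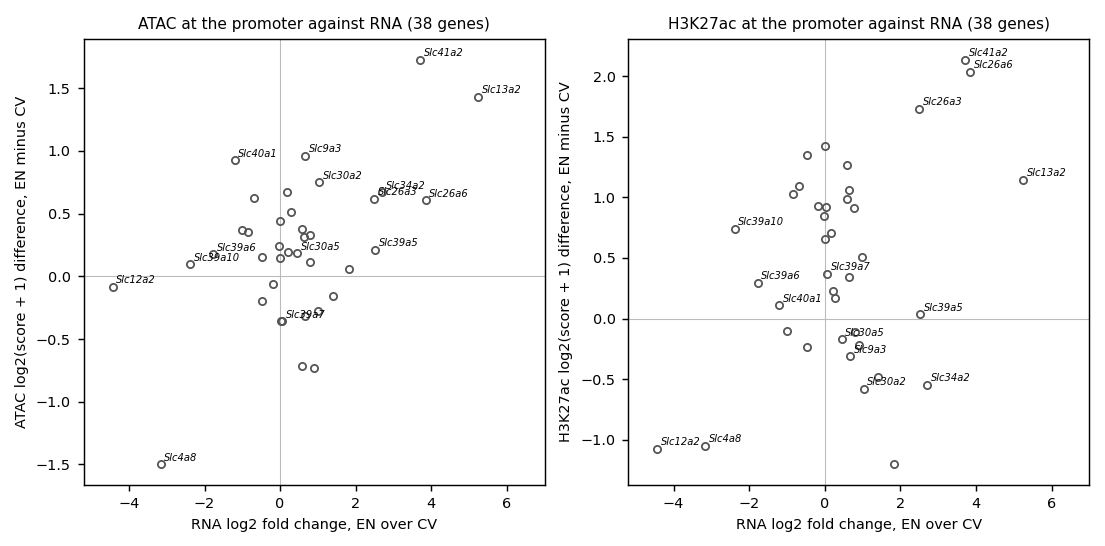
Difference in ATAC score (left) and H3K27ac score (right) from CV to EN, on the log2(score + 1) scale, against the log2 fold change of RNA for 38 carrier genes, each point 1 gene at its highest-scoring promoter region. Slc41a2 lies high in both panels (1.73 and 2.13) and Slc12a2 lies at -0.08 for ATAC.

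Away from start sites, 59 of 263 regions had higher and 40 lower ATAC scores in EN, 99 in all or 37.6%, against 35.4% of all such regions (19.9% higher, 15.5% lower). The directions are given beside those of the RNA, called on gene sums as for the promoters, with no test. The 21 genes with higher RNA held 168 such regions, of which 48 were higher and 15 lower, and the 8 genes with lower RNA held 65, of which 5 were higher and 22 lower. The regions of 1 gene are neighbours and not independent. Slc39a11 alone had 37, of which 3 were higher and 13 lower. None was lower among 14 regions of Slc26a3 (8 higher), 9 of Slc34a2 (5 higher), 7 of Slc13a2 (4 higher) or 7 of Slc9a3 (4 higher).

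The largest rise lay in an intron of Slc9a3, 26142 bp from its start site (chr13:74284885-74285324). It scored 3, 2, 5 and 1 in CV, 12, 15, 15 and 14 in ENR and 49, 56, 56 and 81 in EN. The cultures did not overlap, and the log2 difference from CV to EN was 4.12 (SE 0.28, adjusted p = 7.6e-09). ENR scored above CV in this region, whereas the RNA of Slc9a3 was lower in ENR than in CV. A region between genes near Slc13a2, centred at -5558 bp from its start site (chr11:78241128-78241425), scored 0, 1, 1 and 2 in CV, 6, 5, 4 and 4 in ENR and 26, 20, 12 and 15 in EN (3.32, SE 0.34, adjusted p = 7.2e-07).

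The 300 bases centred on each of these regions, which had the largest rises, are shown from mm9, plus strand, in lower case. Neither held an exact match of the HNF4 motif searched for further on, and near matches were not marked. The Slc9a3 window holds caaagtcct, which differs from that motif in its last base.
Slc9a3 intron, chr13:74284955-74285254: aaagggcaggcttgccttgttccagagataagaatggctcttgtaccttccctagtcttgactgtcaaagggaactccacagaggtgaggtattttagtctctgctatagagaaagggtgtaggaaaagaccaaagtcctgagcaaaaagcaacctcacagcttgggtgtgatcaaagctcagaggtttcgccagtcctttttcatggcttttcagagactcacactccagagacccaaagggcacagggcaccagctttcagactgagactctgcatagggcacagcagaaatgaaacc
Near Slc13a2, chr11:78241127-78241426: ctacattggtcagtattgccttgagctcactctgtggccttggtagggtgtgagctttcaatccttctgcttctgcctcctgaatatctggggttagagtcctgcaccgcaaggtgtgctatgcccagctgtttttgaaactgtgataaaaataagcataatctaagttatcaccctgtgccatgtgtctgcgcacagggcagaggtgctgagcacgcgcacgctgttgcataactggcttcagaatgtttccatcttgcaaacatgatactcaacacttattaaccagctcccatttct

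At Slc26a3, an exonic region (chr12:32146314-32146657) scored 6, 7, 5 and 11 in CV, 14, 18, 18 and 23 in ENR and 57, 69, 51 and 67 in EN (2.95, SE 0.22, adjusted p = 2.2e-08). Its H3K27ac score rose with it, from 5, 8 and 3 in CV to 49, 25 and 53 in EN (2.78, SE 0.52, adjusted p = 0.00066). An intronic region of Slc34a2 (chr5:53434139-53434509) scored 10, 9, 9 and 10 in CV, 15, 19, 25 and 26 in ENR and 39, 46, 62 and 61 in EN (2.31, SE 0.20, adjusted p = 1.4e-07). In both regions every EN library lay above every other library.

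**Figure D5:**
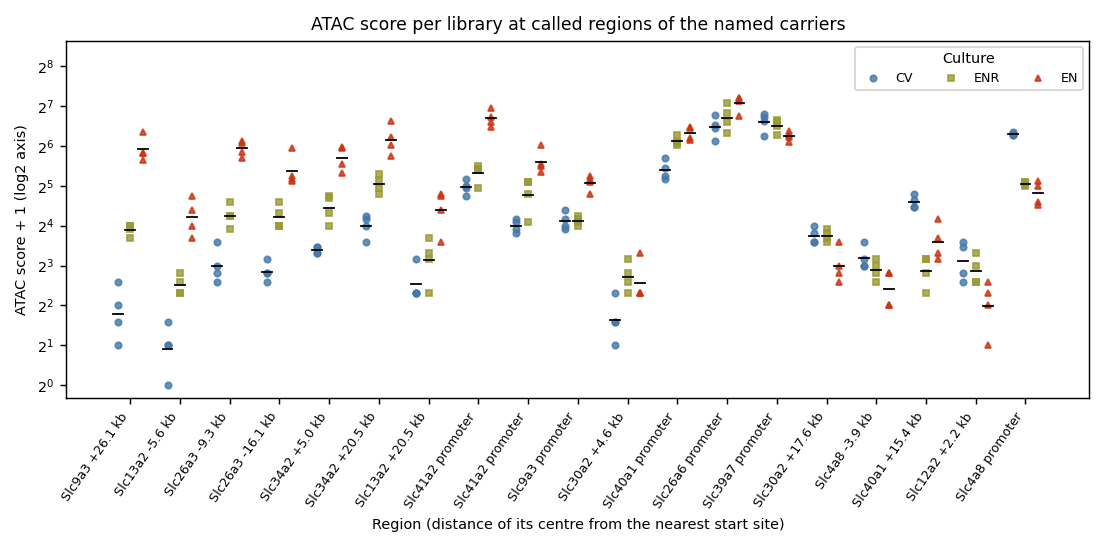
ATAC score + 1 on a log2 axis at called regions of the named carriers, in 4 libraries per culture; points are libraries, bars culture means, and each label gives a promoter or the distance of the region's centre from the nearest start site in kb. The Slc9a3 intron rises from 1 to 5 in CV to 49 to 81 in EN, and the Slc4a8 promoter falls from 77 to 81 in CV to 22 to 34 in EN, as scores before 1 is added.

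H3K27ac, a mark of active promoters and enhancers, was higher in EN at 15 of 61 carrier promoter regions and lower at none. The share of 24.6% stood against 19.0% of all regions near a start site, 15.4% higher and 3.55% lower. CV medium held valproic acid and EN medium did not. Any effect of it on acetylation cannot be told apart from other differences between the cultures and was not tested. The Slc26a6 promoter (chr9:108756245-108758087) scored 26, 46 and 54 in CV, 71, 32 and 49 in ENR and 191, 147 and 168 in EN (2.03, SE 0.32, adjusted p = 7.5e-05). The Slc26a3 promoter (chr12:32122515-32124097) scored 93, 91 and 54 in CV, 112, 72 and 62 in ENR and 242, 217 and 328 in EN (1.73, SE 0.26, adjusted p = 3.2e-05). In both, EN lay above all other libraries. The Slc41a2 promoter rose by 2.13, and the zinc exporters Slc30a1 (1.06) and Slc30a6 (1.43) were also called. So was Slc39a10, at 103, 83 and 122 in CV, 184, 181 and 173 in ENR and 169, 162 and 179 in EN (0.74, SE 0.20, adjusted p = 0.021), whose RNA fell. RNA was again called on gene sums for the split that follows. By gene, a higher H3K27ac promoter region was found for 6 of 22 genes with higher RNA, 4 of 11 with lower RNA and 4 of 5 whose RNA was not called. These genes held 37, 18 and 6 promoter regions, of which 7, 4 and 4 were higher. Genes with more regions have more chances of a call, so the shares of genes are not directly comparable. The count of 15 dropped to 8 without EN replicate 3, to 6 without EN replicate 4 and to 2 without the intensity trend. With quantile normalization it was 9, of which 2 were lower. Over all 18074 regions near a start site the calls fell from 3426 to 1842, 1808, 281 and 1954 in the same order. With quantile normalization 965 of these were higher and 989 lower.

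H3K4me3, which marks active start sites, was called at 4 of 60 carrier promoter regions, 6.67% against 9.6% of all regions near a start site (4.21% higher, 5.39% lower). Slc26a6 (0.96), Slc4a7 (0.79) and Slc39a10 (0.58) were higher in EN and Slc4a8 was lower. The Slc4a8 promoter scored 50, 52 and 54 in CV, 23, 21 and 30 in ENR and 25, 15 and 15 in EN (-1.49, SE 0.22, adjusted p = 0.0084), so that CV again stood above both cultures. The count fell to 2 without CV replicate 3, CV replicate 4, ENR replicate 2 or ENR replicate 4. Over all regions near a start site the calls fell from 1694 to 1045, 918, 1079 and 1137 in the same order. For the repressive mark H3K27me3, limma called 0 of 61 carrier promoter regions, with 3 at an unadjusted p under 0.05, against 0.37% of all regions near a start site (0.282% higher, 0.0885% lower). Away from start sites 14 of 262 regions were called for H3K27ac (8 higher, 6 lower), against 4.2% of all such regions (2.62% higher, 1.58% lower). This count was 7 without EN replicate 2, 6 without EN replicate 3 and 4 without EN replicate 4, the last with 1 higher and 3 lower. It was 4 without the intensity trend. Over all regions away from start sites the calls fell from 3201 to 1132, 1165, 1029 and 643 in the same order. An intronic region of Slc12a2, 1338 bp past its start site, fell, at 46, 44 and 41 in CV, 42, 28 and 35 in ENR and 11, 4 and 17 in EN (-2.12, SE 0.46, adjusted p = 0.0031).

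Hnf4g, a nuclear receptor of the enterocyte lineage, was profiled in 1 library per culture, so its values are descriptions without a test and the intervals cover counting error only. The regions held 84340 reads in CV, 352600 in ENR and 1816497 in EN. With reads scaled to the library's total in regions (RPM), 3 counts came to 35.6, 8.51 and 1.65 RPM. This scaling gives every library the same mean of 10.6 RPM per region. RPM therefore cannot compare the amount of Hnf4g bound between cultures. The paper reports hardly any Hnf4g binding in CV organoids and many peaks in EN. Carrier promoter regions together drew 140 reads in CV (1660 RPM, exact 95% Poisson interval 1396 to 1959), 502 in ENR (1424 RPM, 1302 to 1554) and 4453 in EN (2451 RPM, 2380 to 2525). Regions away from start sites drew 2051, 1682 and 1777 RPM. The promoters with most reads in EN were those of the metal carriers Slc30a1 (438 reads, 241 RPM), Slc39a4 (340 reads, 187 RPM) and Slc30a10 (299 reads, 165 RPM). In CV these had 8 reads (94.9 RPM, interval 40.95 to 187), 12 reads (142 RPM, 73.5 to 249) and 11 reads (130 RPM, 65.1 to 233). The CV intervals for Slc39a4 and Slc30a10 cover the EN values, and that for Slc30a1 ends below its EN value. Reads were not scaled to region width, which was 1705 bp for Slc30a1, 1682 bp for Slc39a4 and 701 bp for Slc30a10. From CV to EN the RNA of Slc30a1 and Slc30a10 was higher and that of Slc39a4 lower.

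Promoter sequences from RefSeq on GRCm38.p6, 250 bases before to 50 after each start, matched 26 of the 39 carrier genes with 35 windows. The core of the metal response element (TGCACNC or TGCGCNC, on either strand, where overlapping matches count separately) was in 14 of the 35 windows (40%) of 13 genes, against 25.9% of all 32544 promoter windows. The HNF4 motif CAAAGTCCA, on either strand, was in 0 of the 35, against 0.479% of all. Only exact matches counted. With so low a share in all windows, 0 of 35 cannot show that HNF4 sites were absent or rare. By a different motif search, the paper reports the Hnf4g motif in most of the genes raised in EN. The bases before the start are shown for the metal exporters Slc30a1 and Slc30a10, whose promoters were among the 3 with most Hnf4g reads in EN, and for the magnesium carrier Slc41a2, whose promoter had one of the largest ATAC rises. Each is 1 run of 250 bases on the gene's strand, with the metal response core in capitals.
Slc30a1: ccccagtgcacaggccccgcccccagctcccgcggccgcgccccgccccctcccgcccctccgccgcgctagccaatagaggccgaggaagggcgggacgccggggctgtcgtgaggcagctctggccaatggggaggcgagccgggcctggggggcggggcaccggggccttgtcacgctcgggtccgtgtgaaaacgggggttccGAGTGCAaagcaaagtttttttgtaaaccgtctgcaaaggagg
Slc30a10: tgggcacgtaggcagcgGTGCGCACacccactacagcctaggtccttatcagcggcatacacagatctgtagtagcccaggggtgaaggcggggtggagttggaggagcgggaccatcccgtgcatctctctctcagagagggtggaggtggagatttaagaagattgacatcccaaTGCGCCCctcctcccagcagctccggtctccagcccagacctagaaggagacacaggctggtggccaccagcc
Slc41a2: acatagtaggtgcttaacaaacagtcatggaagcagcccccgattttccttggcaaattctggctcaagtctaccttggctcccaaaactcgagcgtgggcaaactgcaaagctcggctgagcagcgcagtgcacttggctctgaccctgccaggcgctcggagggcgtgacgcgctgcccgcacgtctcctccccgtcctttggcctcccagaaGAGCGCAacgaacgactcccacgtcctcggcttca

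In the central 300 bases of the regions away from start sites, CAAAGTCCA on either strand was found in 6 of 263 (2.28%), against 2.65% of all such regions. Only exact matches counted here too. It was in 2 of the 59 with a higher, 1 of the 40 with a lower and 3 of the 164 not called for the ATAC score. Among promoter regions on mm9, 1 of Slc4a2 held it, whose ATAC score was not called (0.16, adjusted p = 0.29). The 3 matches in called regions are shown from mm9, plus strand, with the motif in capitals and 20 bases to each side.
Slc26a3, chr12:32082731-32082779: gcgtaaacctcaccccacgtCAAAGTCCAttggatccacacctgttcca
Slc26a3, chr12:32147630-32147678: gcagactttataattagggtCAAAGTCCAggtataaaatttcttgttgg
Slc39a11, chr11:113430517-113430565: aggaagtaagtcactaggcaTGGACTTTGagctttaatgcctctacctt

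The first Slc26a3 region scored 5, 4, 4 and 2 in CV, 15, 13, 12 and 14 in ENR and 23, 23, 18 and 23 in EN (2.30, SE 0.23, adjusted p = 6.8e-07) and held 4 Hnf4g reads in CV (47.4 RPM, interval 12.9 to 121) and 25 in EN (13.8 RPM, 8.91 to 20.3). The second averaged 19.2, 21.5 and 30.8 (0.70, SE 0.23, adjusted p = 0.021), with 4 reads in CV (47.4 RPM) and 78 in EN (42.9 RPM, 33.9 to 53.6). The Slc39a11 region went the other way, at 46, 46, 38 and 51 in CV, 32, 32, 36 and 25 in ENR and 5, 14, 6 and 10 in EN (-2.33, SE 0.24, adjusted p = 8.1e-07), with 8 reads in CV (94.9 RPM, 40.95 to 187) and 38 in EN (20.9 RPM, 14.8 to 28.7). Scaled to RPM none of these regions was higher in EN. The CV interval lay above the EN interval for the Slc39a11 region and overlapped it for the others. Because RPM has the same mean over all regions in every library, these values do not compare the amount of Hnf4g bound in CV and EN.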

How the data were processed

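RNA, ATAC, histone mark and Hnf4g libraries of CV, ENR and EN organoids were grouped by their titles. The authors made the expected counts and TPM with kallisto (0.43.0 in the submitters' processing notes), against an index of only those transcripts whose proteins they quantified by mass spectrometry, so that reads of other isoforms had no target of their own. The deposited mRNA copies, a score the authors scaled to spike-ins, served as an alternative. For chromatin, the authors aligned reads to mm9 with BWA, removed duplicates with Picard, called peaks with MACS2 2.0, joined them into 94469 regions and deposited normalized scores rounded to whole numbers; how these were normalized is not given in the sources used here. For Hnf4g the deposited counts are raw reads per region.

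Expected counts were rounded and fitted in 1 model of 12 libraries by edgeR 4.0.16 (quasi-likelihood, TMM, Benjamini-Hochberg over 9288 transcripts with counts above 0 in at least 4 libraries). SEs are of the log2 fold change. Rows of 92 spike-in transcripts were left out of library sizes. Scores were fitted by limma 3.58.1 with an intensity trend as log2(score + 1), with a region tested when above 0 in at least 3 libraries. Fold changes on this scale understate those of low regions. Promoters and genes came from GENCODE vM1 on mm9; promoter sequences came from RefSeq on GRCm38.p6, and no coordinate was converted. R 4.3.3, Python 3.11.15, pandas 2.3.3 and DESeq2 1.42.0 (an alternative) were also used. Each fit was run on simulated data in which only a small share of features changed. Those runs do not probe the choice of scaling, since most transcripts were called here. Low counts limit the precision of transcripts near the limit of detection. SEs include the spread between libraries, whereas the intervals, given only for Hnf4g reads, cover no more than counting error.

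Carriers and gene lists were chosen with earlier results of these data known. Carriers with full values were the 6 largest rises and the 6 largest falls of EN over CV among those called, the 6 of highest mean TPM, and those with ENR clear of both other cultures by at least 1 on the log2 scale; for the partner lists, the 3 largest in each direction. Some carriers enter the counts but are not reported singly here. No 2 libraries of a culture agreed within sampling noise (chi-square per degree of freedom 2.37 to 6.67). Alternatives were other scalings, filters, pseudocounts and tools, the replicate block and leaving out each library.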

Additional observations from a re-analysis of the deposited data

Results flagged for a closer look

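Among 105 groups of 4 libraries checked for a single value far from the other 3, 4 stood out, close to the 1 in 20 that chance gives. Slc30a5 read 194 CPM in CV replicate 3 against 182, 183 and 183 CPM in the other CV libraries. At Slc26a3 the region centred at -16068 bp from a start site had an ATAC score of 61 in EN replicate 4 against 34, 35 and 37. The Slc13a2 region 20528 bp past the start scored 8 in CV replicate 4 against 4 in each of the others, and the Slc30a2 region 4608 bp past a start site scored 9 in EN replicate 2 against 4 in each of the others.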

How the results depend on the processing

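Of the recomputed counts of called carriers, list genes and regions, 184 stayed within 1.5 times the value in the report and 20 did not. Of the log2 fold changes of the named carriers, 343 kept their direction and their side of the threshold, 5 lost the call, 1 gained it and 3 changed sign. With spike-in scaling, 23 carriers were called between EN and CV and 21 between CV and ENR, and by mRNA copies 15 between CV and ENR. Slc39a7, not called in the report, changed sign to -0.27 by TPM with a pseudocount of 1 or 0.1 and to -0.36 with spike-ins. H3K27ac calls at carrier promoters fell from 15 to 2 without the intensity trend and 9 with quantile normalization. Those away from start sites, with alternatives chosen after seeing the data, fell from 14 to 4 without the trend. H3K4me3 calls went from 4 to 1 without the trend and 7 with a mean score of at least 5. Over all regions near a start site, H3K27ac calls went from 3426 to 281 and 1954. The H3K4me3 calls there went from 1694 to 1221 and 2396. Deviations of same-numbered libraries correlated at -0.059 to 0.0955 for RNA, -0.0813 to 0.131 for the histone marks and 0.0695 to 0.460 for ATAC, where all 12 pairs were positive and 6 of 8 libraries of CV and EN went best with their own number. The numbers were not taken as pairs, which would have needed every correlation above 0.1. With the replicate number as a block, H3K27ac calls were 0 at promoters and 0 away from them, and also 0 of all 94215 regions tested. H3K4me3 calls were 0 at carrier promoters and 296 of all 17646 regions near a start site. RNA calls were 34, 34 and 32 and ATAC calls 27 and 100, and no other count changed by over 1.5 times. Leaving out 1 library at a time gave 32 to 36 carriers for EN against CV, 31 to 34 for EN against ENR, 31 to 33 for CV against ENR, 31 to 32 ion transport partners, 20 to 22 metal genes, 21 to 26 ATAC promoter regions, 83 to 101 regions away from start sites, 6 to 15 H3K27ac, 2 to 6 H3K4me3 and 0 to 0 H3K27me3 promoter regions and 4 to 15 H3K27ac regions away from start sites. The causes of these changes were not tested. A fit with further histone libraries was not run, since the table held only those already used. Depth limits, among others, Slc30a2, Slc13a2 and Pdzk1 in CV, Atp4a, Car12 and Atp2b4 in EN, and the Hnf4g library of CV.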
